A study of Mus musculus with 28 samples.

Results

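The genes described here make or handle itaconate, nitric oxide and the amino acids they draw on. They are 9 of the 40021 genes in the deposited expression table and were taken by symbol: Acod1, Nos2, Arg1, Arg2, Ass1, Gch1, Slc7a2, Slc7a11 and Il4i1. Each was followed in mRNA-Seq of microglia, the resident macrophages of the retina, sorted from 28 single retinas before and during endotoxin-induced uveitis (EIU), in which lipopolysaccharide (LPS) is injected into the vitreous of the eye. The controls were 10 naïve retinas, and LPS-injected retinas were collected after 4 h (6 retinas), 18 h (5 retinas) and 2 weeks (7 retinas), from 2 experiments and from left and right eyes.

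All 4 groups were male C57BL/6 mice heterozygous for Cx3cr1CreER:R26-tdTomato, which had received tamoxifen. In this line the Cx3cr1 promoter drives a tamoxifen-dependent Cre that switches on tdTomato, so other cells with an active Cx3cr1 promoter when tamoxifen was given can carry the label too. The groups differed in LPS injection and the time after it. Vehicle-injected retinas were not analysed here, so the injection itself and LPS cannot be told apart. Live tdTomatohi cells that excluded the dye DRAQ7 were collected, and each retina was 1 library. The labels do not tie retinas to mice: left and right eyes may share a mouse, in which case the p-values below are too small.

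Activated macrophages rewire their metabolism. ACOD1 diverts the tricarboxylic acid cycle intermediate cis-aconitate into itaconate. NOS2 makes nitric oxide from arginine and needs tetrahydrobiopterin, whose synthesis starts with GCH1. ARG1 in the cytosol and ARG2 in mitochondria split the same arginine into ornithine and urea, ASS1 starts the remaking of arginine from citrulline, and SLC7A2 carries arginine into the cell. SLC7A11 exchanges glutamate for cystine, the source of cysteine for glutathione, and IL4I1 is a secreted oxidase of aromatic amino acids.

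The values were deposited as RPKM, read numbers scaled to transcript length and to the mapped reads of the library, so levels can be compared between genes. The retinas had 7510000 to 19700000 alignments and 6552 to 11825 genes at an RPKM of at least 1. All 12 microglial markers, P2ry12 and Tmem119 among them, reached an RPKM of 1 in some retina of every group. Their summed RPKM was 8461 to 14510 in naïve retinas and 9066 to 14600 at 2 weeks, but 2206 to 7362 at 4 h and 4028 to 6662 at 18 h. The summed RPKM of 9 rod photoreceptor markers was 261 to 4486 in naïve retinas and 191 to 4480 in EIU retinas, so rod transcripts were present in every library. The summed RPKM of 10 neutrophil markers stayed at or below 0.785 in naïve retinas and 0.934 at 4 h and reached 17.4 at 18 h. The summed RPKM of 10 lymphocyte markers was at most 0.416 in naïve retinas and 5.33 at 4 h and ran from 8.03 to 105 at 18 h, and its part in the 18 h results was not tested. Perivascular macrophage markers, 6 genes, had a median sum of 214 RPKM in naïve retinas, 110.2 at 4 h and 29.2 at 18 h, and 8 Müller glia markers had 141, 101 and 52.9. The sum of 6 erythrocyte markers was 14.0 to 38.2 RPKM in 5 of the 4 h retinas and 735 in 4 h retina 5, which had the highest Gch1 and Slc7a11 levels. The part of these cells in the results was not tested. An exact 0 in this table can be a failed estimate and is not taken as absence. In sorted bulk samples fewer cells of a type and less RNA per cell cannot be told apart.

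Of the members, 4 rose at 4 h and none fell: Acod1, Slc7a11, Gch1 and Il4i1. A gene was called at an adjusted p of at most 0.05 and at least a 2-fold change in limma, over 13164 genes that reached an RPKM of 1 in at least 5 retinas. By that rule 3.68% of all genes tested were called up at 4 h and 4.39% were called down. The members Arg1, Slc7a2 and Nos2 did not reach the minimum, and Acod1, Slc7a11 and Il4i1 reached it mainly through the 4 h or 18 h retinas in which they were high, so the share of tested members that rose carries no weight of its own. At 18 h Acod1 was still called up and no member was called down, beside 2.84% of all genes up and 1.85% down. At 2 weeks no member was called, beside 0.0076% of all genes, and none of the 6 members tested had an unadjusted limma p under 0.05 there.

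**Figure D1:**
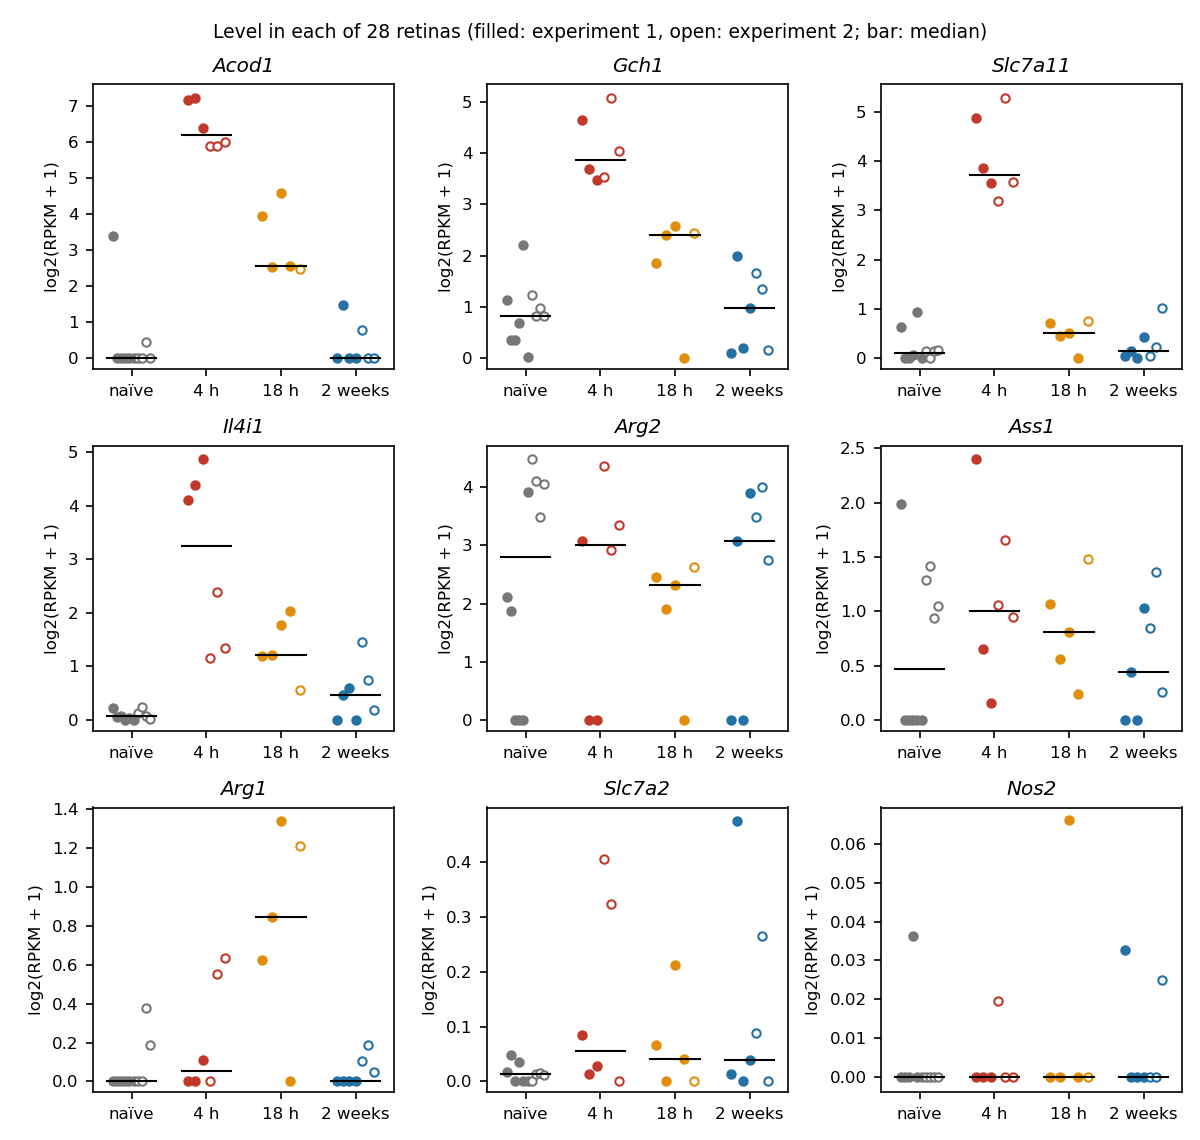
Level of each of the 9 genes, as log2(RPKM + 1), in 10 naïve, 6 4 h, 5 18 h and 7 2-week retinas, with each point 1 retina, filled for experiment 1 and open for experiment 2, and the bar at the group median. Acod1, Gch1, Slc7a11 and Il4i1 were higher in all 6 retinas at 4 h than in any naïve retina, whereas Arg2 and Ass1 overlapped between all groups. The vertical scales differ between panels.

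The sequences before the transcription starts of Acod1, Gch1 and Slc7a11 are shown because these 3 genes rose together at 4 h and their retinas at 4 h did not overlap with those at 18 h. They are RefSeq promoter sequences on GRCm38.p6, read 5′ to 3′ on the gene's own strand and ending beside the transcript, with capitals for exact matches to 7 short motifs that were searched on both strands. The Slc7a11 stretch is chr3:50443615-50443863 on the minus strand, the Gch1 stretch is chr14:47189414-47189663 on the minus strand, and the Acod1 stretch is chr14:103046762-103046976 on the plus strand.
Slc7a11: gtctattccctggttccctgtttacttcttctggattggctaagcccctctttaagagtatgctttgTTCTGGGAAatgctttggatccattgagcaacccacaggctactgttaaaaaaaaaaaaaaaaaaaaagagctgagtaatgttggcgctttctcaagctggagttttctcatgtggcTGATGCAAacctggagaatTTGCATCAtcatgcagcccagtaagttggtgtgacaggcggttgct
Gch1: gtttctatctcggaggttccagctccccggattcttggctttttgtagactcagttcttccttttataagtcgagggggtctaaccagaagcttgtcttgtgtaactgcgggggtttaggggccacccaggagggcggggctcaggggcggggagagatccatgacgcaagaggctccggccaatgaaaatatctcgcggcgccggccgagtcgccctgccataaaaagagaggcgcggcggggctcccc
Acod1: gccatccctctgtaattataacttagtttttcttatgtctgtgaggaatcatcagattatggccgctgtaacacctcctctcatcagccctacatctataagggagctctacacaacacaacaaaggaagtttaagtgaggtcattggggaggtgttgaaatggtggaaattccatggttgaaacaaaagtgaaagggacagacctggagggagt

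The Slc7a11 stretch held TGATGCAA, the ATF4 motif TGATGNAA, starting 66 bases before the RefSeq start, and its reverse complement TTGCATCA starting 47 bases before it. Of the 250 bases before the RefSeq start, the 249 that lie before the gene start given below are printed. ATF4 is the transcription factor of the amino acid response, and 3.45% of 32851 mouse promoters of 250 bases held this motif. A GAS motif, TTCNNNGAA, the letters bound by STAT factors, began 183 bases before the Slc7a11 RefSeq start as TTCTGGGAA, and 7.02% of promoters held it. The other 5 motifs were NF-kappa B (GGG and TTTCC with 2 bases between, in 1.41% of promoters), ISRE (GAAA repeated after 2 bases, 2.98%), ARE (TGACNNNGC, 10.2%), AP-1 (TGANTCA, 6.75%) and XRE (GCGTG, 28.2%). None of the 7 motifs was found in the RefSeq windows of Gch1, Acod1 or Il4i1, which says only that these letters are not there. The Acod1 window runs past the gene start given below, so that 215 of its 250 bases lie before it, and the Il4i1 window lies inside the span of the gene given below, before a RefSeq start downstream of the first annotated one. The Ass1 window held the XRE letters at 2 places, and of the 9 members these 5 were in the promoter table.

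Acod1, which encodes the itaconate-making enzyme, had the largest difference from naïve retinas at 4 h among the members tested on the log2(RPKM + 1) scale. From untransformed means the log2 ratio was 6.53 for Acod1, below 7.52 for Il4i1 and 6.58 for Slc7a11. The gene lies at chr14:103046977-103056573 on the plus strand of GRCm38. Among 10 naïve retinas it was listed at 0 RPKM in 8, at 0.361 RPKM in naïve retina 9 and at 9.59 RPKM in naïve retina 1. At 4 h its RPKM was 142 in retina 1, 149 in retina 2, 81.7 in retina 3, 57.8 in retina 4, 57.6 in retina 5 and 62.2 in retina 6. At 18 h it was 14.5 in retina 1, 4.84 in retina 2, 22.9 in retina 3, 4.94 in retina 4 and 4.52 in retina 5. All 4 h retinas lay above every naïve and every 18 h retina, and the 18 h retinas lay above 9 of the 10 naïve retinas and above every 2-week retina. At 2 weeks the gene was listed at 0 in 5 of 7 retinas, with 1.76 RPKM in retina 2 and 0.729 RPKM in retina 5.

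On the log2(RPKM + 1) scale, Acod1 was 6.03 higher at 4 h than in naïve retinas (SE 0.45, limma adjusted p = 1.8e-11), and 2.84 higher at 18 h (SE 0.48, limma adjusted p = 2.5e-04). The level at 18 h was 3.19 below that at 4 h (SE 0.53, limma adjusted p = 1.3e-04), and the mean RPKM at 18 h was 11.3% of the mean at 4 h. From 18 h to 2 weeks it fell by 2.90 (SE 0.51, limma adjusted p = 5.9e-04), and at 2 weeks its difference from naïve retinas was -0.06 (95% confidence interval -0.94 to 0.82). Within experiment 1 the 4 h difference was 6.35 and within experiment 2 it was 5.80, while at 18 h it was 2.85 in experiment 1 and 2.35 in the 1 retina of experiment 2. With a pseudocount of 10 in place of 1 the 18 h difference was 0.84 and below the 2-fold threshold. Summed neutrophil marker RPKM at 18 h was 1.86 in retina 1, 12.7 in retina 2, 17.4 in retina 3, 0 in retina 4 and 0.885 in retina 5. Retina 3 also had the highest Acod1 level of that group, but retina 2 did not have the next highest. The part of neutrophil RNA in the Acod1 result was not tested.

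The tricarboxylic acid cycle genes around ACOD1 were not called. A list of 26 genes of the cycle, its mitochondrial carriers, itaconate breakdown and its receptors had 24 genes tested. In each comparison with naïve retinas 0 of the 24 were called, with a median log2 difference of -0.09 at 4 h, 0.37 at 18 h and 0.12 at 2 weeks, beside -0.11, -0.08 and 0.07 over all genes tested. In limma 2 of the 24 had an unadjusted p under 0.05 at 4 h and 1 at 18 h, with none after 2 weeks. With equal RPKM totals in all retinas, or with experiment as a covariate, 1 was called down at 4 h. The same count came without naïve retina 1, naïve retina 3, 4 h retina 6 or the retinas with under 8000 genes detected. At 18 h 1 was called up without 18 h retina 4 or without those low-detection retinas. The 3 genes whose levels followed Acod1 most closely over the 28 retinas were Il12b, a subunit of interleukin-12 (Pearson r = 0.95), Ehd1, an endocytic recycling protein (r = 0.94), and Mir155hg, the host transcript of microRNA-155 (r = 0.93). These correlations describe retinas that share the 4 h group and its depth.

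**Figure D2:**
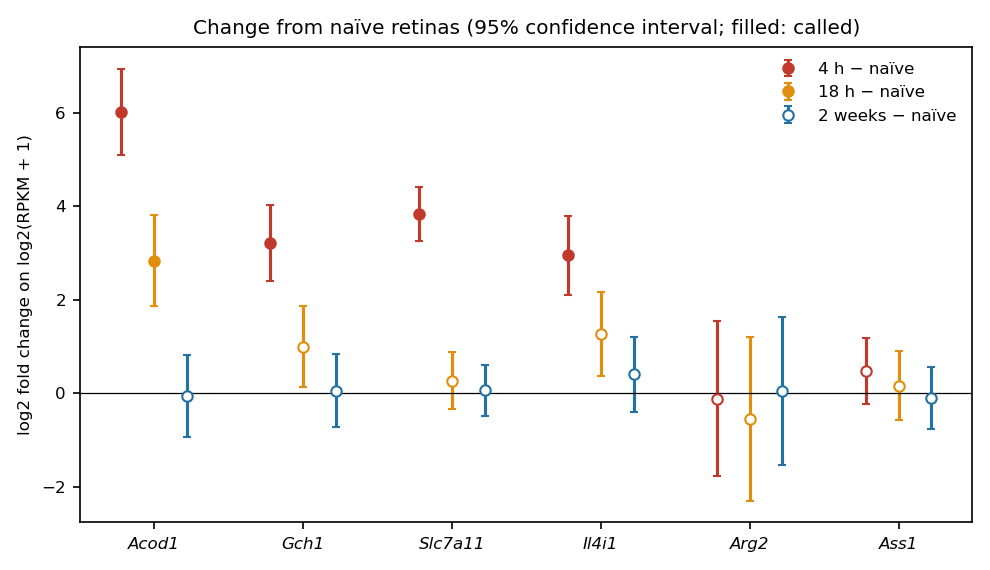
Difference from naïve retinas in log2(RPKM + 1) for the 6 members tested, at 4 h (red), 18 h (orange) and 2 weeks (blue), with 95% confidence intervals from limma and filled points for called genes. Acod1 was 6.03 higher at 4 h and 2.84 higher at 18 h, Slc7a11, Gch1 and Il4i1 were called at 4 h, and every interval at 2 weeks included 0.

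Nos2, which encodes the inducible nitric oxide synthase, was at the level of a few reads at most in every library. The gene lies at chr11:78920787-78960254 on the plus strand. It was listed at 0 in 9 of 10 naïve retinas, 5 of 6 retinas at 4 h, 4 of 5 at 18 h and 5 of 7 at 2 weeks. Its highest RPKM was 0.0254 in naïve retina 4, 0.0137 in 4 h retina 4, 0.0469 in 18 h retina 3 and 0.0229 in 2-week retina 1. For a transcript of this length 1 read is worth about 0.0121 RPKM in the deepest and 0.0318 RPKM in the shallowest library. No retina of any group exceeded 0.0469 RPKM. With no filter on low values its limma adjusted p was 1 at 4 h and 0.83 at 18 h.

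Gch1, the first enzyme of tetrahydrobiopterin synthesis, rose at 4 h. The gene lies at chr14:47153895-47189413 on the minus strand. In naïve retinas its RPKM ran from 0.0169 to 3.61, with a median of 0.772. At 4 h it was 24.0 in retina 1, 11.9 in retina 2, 10.2 in retina 3, 10.6 in retina 4, 32.9 in retina 5 and 15.4 in retina 6, all above every naïve retina. At 18 h it was 2.64 in retina 1, 4.32 in retina 2, 4.98 in retina 3 and 4.45 in retina 5, and it was listed at 0 in retina 4. The 18 h retinas lay below all those at 4 h and only 3 of 5 lay above every naïve retina. At 2 weeks the RPKM ran from 0.0808 to 2.98, with a median of 0.970, within the naïve range.

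Gch1 was 3.21 higher at 4 h on the log2 scale (SE 0.40, limma adjusted p = 7.2e-07), with 3.14 in experiment 1 and 3.25 in experiment 2. At 18 h the difference of 1.00 from naïve retinas did not pass (SE 0.43, limma adjusted p = 0.20), and it passed without 18 h retina 4, at 1.46 (limma adjusted p = 0.031). That retina had 6969 genes at an RPKM of at least 1, the lowest number in its group. From 4 h to 18 h Gch1 fell by 2.22 (SE 0.47, limma adjusted p = 0.0030), a difference that did not pass within experiment 1 alone (limma adjusted p = 0.16) or experiment 2 alone (limma adjusted p = 0.14). At 2 weeks the difference from naïve retinas was 0.06 (95% confidence interval -0.72 to 0.84).

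Of 21 other symbols of nitric oxide and tetrahydrobiopterin metabolism 15 genes were tested, and 1 was called down and 0 up at 4 h. None of the 15 was called at 18 h or 2 weeks, where 3 and 1 had an unadjusted limma p under 0.05. The gene that fell was Pts, which encodes the enzyme after GCH1 in the same pathway. Its RPKM was 15.0 to 48.9 in naïve retinas (median 25.2) and 5.75 to 17.4 at 4 h (median 10.6), with 4 of 6 retinas at 4 h below every naïve retina. Pts fell by 1.25 at 4 h (SE 0.29, limma adjusted p = 0.0038), but not past the threshold within experiment 1 alone (limma adjusted p = 0.091) or experiment 2 alone (limma adjusted p = 0.066). At 18 h its RPKM was 12.9 to 14.9, with all 5 retinas below every naïve retina, a pattern whose share over all genes was not counted. The 18 h difference was -0.85 and was not called (SE 0.31, limma adjusted p = 0.11). The median log2 difference of the list was -0.14 at 4 h and -0.06 at 18 h. The genes most like Gch1 over the 28 retinas were Pmaip1, which encodes the pro-apoptotic protein NOXA (Pearson r = 0.95), the cytokine gene Il1b (r = 0.93) and Il12b (r = 0.91).

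Both arginase genes were measured, and their courses were not tested against each other. Arg1, at chr10:24915221-24927484 on the minus strand, stayed at or below 0.298 RPKM in naïve retinas and was listed at 0 in 8 of them. At 4 h it was listed at 0 in 3 retinas, and its highest RPKM was 0.465 in retina 5 and 0.554 in retina 6. At 18 h its RPKM was 0.543 in retina 1, 0.796 in retina 2, 1.53 in retina 3 and 1.31 in retina 5, with retina 4 listed at 0. The other 4 retinas at 18 h lay above every naïve retina and every 2-week retina, where the highest level was 0.138 RPKM.

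Arg1 reached an RPKM of 1 in 2 retinas only and was therefore outside the main test. With no filter its difference at 18 h was 0.75 (SE 0.15, limma adjusted p = 0.0061), which is under the 2-fold threshold on the log2(RPKM + 1) scale, and the change from 18 h to 2 weeks was -0.76 (limma adjusted p = 0.016). The summed RPKM of 9 monocyte markers was 0.132 to 13.7 in naïve retinas and 0.228 to 50.8 at 18 h. Neutrophil marker RPKM at 18 h was highest, at 17.4, in retina 3, which had the most Arg1. It was 0.885 in retina 5, which had the next highest Arg1 level. The part of either marker sum in the Arg1 level was not tested.

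Arg2, at chr12:79130777-79156301 on the plus strand, was the arginase with the higher RPKM in most retinas and did not differ detectably between groups. In naïve retinas its RPKM ran from 0 to 21.4, with a median of 6.74, and at 4 h from 0 to 19.6, with a median of 7.00. At 18 h it was 4.49 in retina 1, 2.76 in retina 2, 3.96 in retina 3, 0 in retina 4 and 5.15 in retina 5, and at 2 weeks it ran from 0 to 15.0, with a median of 7.40. No EIU retina lay above all naïve retinas, and none could lie below all of them, because 3 naïve retinas were listed at 0. The difference from naïve retinas was -0.12 at 4 h (95% confidence interval -1.77 to 1.54, limma adjusted p = 0.96), -0.54 at 18 h (interval -2.30 to 1.21, limma adjusted p = 0.81) and 0.05 at 2 weeks (interval -1.53 to 1.64). These intervals leave room for changes of over 2-fold in either direction. In experiment 2, where no retina was listed at 0, the RPKM was 10.2 to 21.4 in naïve retinas and 6.57 to 19.6 at 4 h. There it was 5.15 in the 1 retina at 18 h, a log2 difference of -1.41 from naïve retinas, and 5.74 to 15.0 at 2 weeks.

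Arg2 varied with the number of genes detected in a library. It was listed at 0 in 8 retinas, all of experiment 1, in which 6552 to 9536 genes reached an RPKM of 1 and the rod markers summed to 191 to 634 RPKM. In the other 20 retinas 8562 to 11825 genes reached that level and the rod markers summed to 345 to 4486 RPKM. Over the 28 retinas Pearson's r of Arg2 was 0.76 with the number of genes detected and 0.79 with the log2 of the summed rod markers. The genes most like Arg2 were E130102H24Rik (r = 0.94), Mrnip, a DNA repair factor (r = 0.91), and Mgarp, a mitochondrial protein gene (r = 0.88). The 3′ end of Arg2 overlaps Vti1b on the opposite strand, and counting without strand cannot divide reads of that overlap. Vti1b was not called at 4 h (log2 difference -0.64, limma adjusted p = 0.14).

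**Figure D3:**
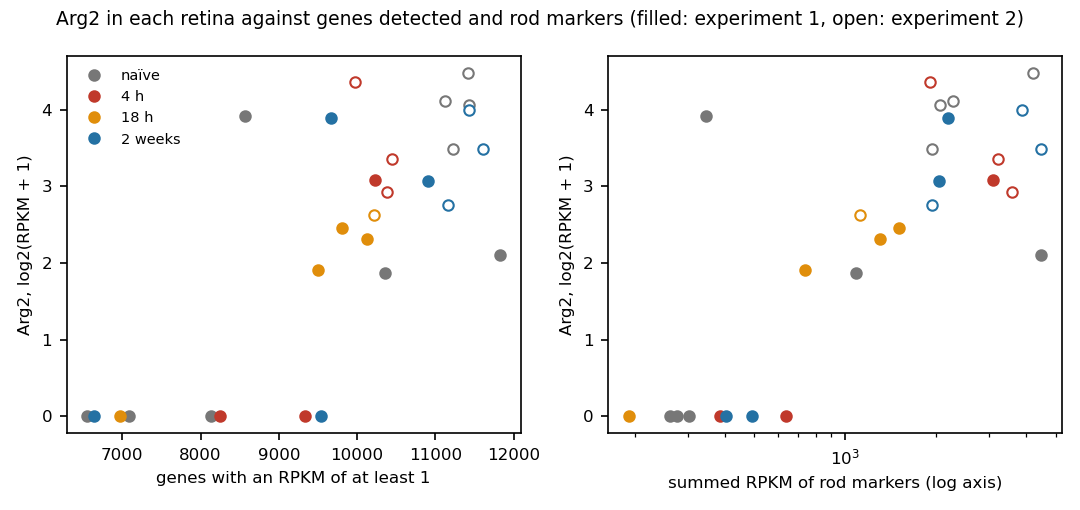
Arg2 as log2(RPKM + 1) in each of 28 retinas against how many genes reached an RPKM of 1 (left) and the summed RPKM of 9 rod markers on a log axis (right), coloured by group and open for experiment 2. The 8 retinas listed at 0 were all of experiment 1 and had at most 9536 genes detected.

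Ass1, which encodes argininosuccinate synthase, varied in the same way. The gene lies at chr2:31470207-31520672 on the plus strand. Its RPKM in naïve retinas was 0 in retinas 2 to 6 and 0.919 to 2.97 in the other 5, of which 4 were from experiment 2. At 4 h it ran from 0.111 to 4.28, with a median of 1.01, and 1 of 6 retinas lay above every naïve retina. At 18 h the RPKM was 1.09 in retina 1, 0.475 in retina 2, 0.749 in retina 3, 0.182 in retina 4 and 1.79 in retina 5, within the naïve range, and at 2 weeks it ran from 0 to 1.57. The difference from naïve retinas was 0.48 at 4 h (95% confidence interval -0.22 to 1.18, limma adjusted p = 0.47), 0.16 at 18 h (interval -0.58 to 0.90) and -0.11 at 2 weeks (interval -0.77 to 0.56). Pearson's r of Ass1 over the 28 retinas was 0.62 with the genes detected and 0.77 with the log2 of the summed rod markers. The genes most like it were Lypla2 (r = 0.88), the signalling adaptor gene Traf2 (r = 0.86) and Polm (r = 0.86).

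Slc7a2, the arginine carrier gene at chr8:40862396-40922308 on the plus strand, was low in every retina, and 1 read of its long transcript is worth about 0.00642 RPKM in the deepest and 0.0168 RPKM in the shallowest library. Its RPKM was at most 0.0344 in naïve retinas. At 4 h the highest values were 0.324 RPKM in retina 4 and 0.252 RPKM in retina 5, and the other 4 retinas had at most 0.0600 RPKM. At 18 h the highest value was 0.158 RPKM in retina 3, and at 2 weeks 0.390 RPKM in retina 2. Above every naïve retina lay 3 of 6 retinas at 4 h, 2 of 5 at 18 h and 3 of 7 at 2 weeks. With no filter it was not called at 4 h (log2 difference 0.13, limma adjusted p = 0.56).

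Of 27 symbols of ornithine and polyamine metabolism around the arginases 18 genes were tested, and 1 was called down at 4 h, 2 were called up at 18 h and 0 were called at 2 weeks. Over all genes 4.39% were called down at 4 h and 2.84% up at 18 h, and nothing particular to the list is read from these counts. Sat1, which encodes the enzyme that acetylates polyamines for export or breakdown, fell by 1.13 at 4 h (SE 0.25, limma adjusted p = 0.0024), from a median of 286 RPKM in naïve retinas to 135 RPKM. Leaving out 4 h retina 1 gave -0.97 for Sat1, just under the 2-fold threshold, and experiment 2 alone gave -0.67.

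The genes that rose at 18 h encode enzymes of polyamine and proline synthesis. Srm, spermidine synthase, was listed at 0 to 40.5 RPKM in naïve retinas (median 23.1) and 28.1 to 157 RPKM at 18 h (median 115), with 4 of 5 retinas above every naïve retina. Its log2 difference was 2.24 (SE 0.57, limma adjusted p = 0.015). Aldh18a1, which makes the precursor of proline and ornithine from glutamate, was listed at 0 to 3.38 RPKM in naïve retinas and 1.76 to 11.0 RPKM at 18 h, 3 of 5 above every naïve retina. Its log2 difference was 1.68 (SE 0.45, limma adjusted p = 0.021). The call of Srm was lost on leaving out 18 h retina 1 (limma adjusted p = 0.070), 2 (0.054) or 3 (0.053), and that of Aldh18a1 on leaving out 18 h retina 3 (0.065) or 4 (0.082). Neither passed within experiment 1 alone (limma adjusted p = 0.13 for Srm and 0.053 for Aldh18a1) or experiment 2 alone (0.12 and 0.69).

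Slc7a11, the light chain of the cystine-glutamate exchanger at chr3:49892526-50443614 on the minus strand, rose at 4 h. At 18 h it lay within the naïve range, with a median above the naïve one. In naïve retinas its RPKM ran from 0 to 0.931, with a median of 0.0788. At 4 h it was 28.1 in retina 1, 13.6 in retina 2, 10.7 in retina 3, 8.11 in retina 4, 38.0 in retina 5 and 10.9 in retina 6. At 18 h it was 0.641 in retina 1, 0.376 in retina 2, 0.426 in retina 3, 0 in retina 4 and 0.685 in retina 5, with a median of 0.426. The 6 retinas at 4 h were above every naïve and every 18 h retina. None of the 18 h retinas lay above the highest naïve one, naïve retina 5 at 0.931. At 2 weeks the RPKM ran from 0.0085 to 1.04, with a median of 0.112.

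Slc7a11 was 3.84 higher at 4 h on the log2 scale (SE 0.28, limma adjusted p = 1.2e-11), with 3.82 in experiment 1 and 3.90 in experiment 2. At 18 h the difference from naïve retinas was 0.27 (95% confidence interval -0.33 to 0.88, limma adjusted p = 0.70), and at 2 weeks 0.06 (interval -0.48 to 0.61). From 4 h to 18 h it fell by 3.57 (SE 0.33, limma adjusted p = 5.3e-09), and the mean RPKM at 18 h was 2.33% of that at 4 h, beside 11.3% for Acod1, 18.7% for Gch1 and 14.5% for Il4i1. The genes whose pattern was most like it were the predicted genes Gm45266 (Pearson r = 0.96) and Gm32296 (r = 0.96) and Tnfaip2, a TNF-induced gene (r = 0.96).

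Of 21 symbols of cystine and glutathione metabolism around Slc7a11 18 genes were tested, with 2 called up and 2 down at 4 h, 1 up and 1 down at 18 h, and 0 after 2 weeks. The list's median log2 difference was 0.06 at 4 h and 0.07 at 18 h. All 6 lists together had 3 of 88 genes called up and 4 down at 4 h, near the 3.68% and 4.39% over all genes. The 1 gene called up at 18 h in this list was 0 to 2 genes under 14 alternatives, 2 of which gave 1, and 0 to 2 on leaving out single retinas.

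Txnrd1, thioredoxin reductase, had 0.206 to 10.3 RPKM in naïve retinas (median 1.77), 4.42 to 46.5 at 4 h (median 20.3) and 0.224 to 3.18 at 18 h. It was 2.54 higher at 4 h (SE 0.46, limma adjusted p = 2.8e-04), with 4 of 6 retinas above every naïve retina. Slc3a2, the heavy chain that pairs with SLC7A11 in the exchanger and is named here after its values were seen, had 8.21 to 106 RPKM in naïve retinas (median 42.5) and 79.6 to 219 at 4 h (median 92.1). Its difference was 1.49 (SE 0.44, limma adjusted p = 0.026), and the call was lost on leaving out 4 h retina 1 (limma adjusted p = 0.079) or 5 (0.094), and within experiment 1 alone (0.27) or experiment 2 alone (0.074).

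Gpx1, the main cytosolic glutathione peroxidase, fell at 4 h. Its RPKM was 310 to 777 in naïve retinas, 99.6 to 273 at 4 h and 463 to 801 at 18 h, so that all 6 retinas at 4 h lay below every naïve retina. It fell by 1.62 at 4 h (SE 0.26, limma adjusted p = 5.0e-05), and at 18 h its difference was 0.40 (limma adjusted p = 0.49). Ggt5, a gamma-glutamyl transferase of extracellular glutathione, fell by 1.54 at 4 h (SE 0.32, limma adjusted p = 0.0015) and by 1.41 at 18 h (SE 0.34, limma adjusted p = 0.011). It had 0.928 to 6.56 RPKM in naïve retinas and at most 0.184 RPKM at 4 h and 0.554 RPKM at 18 h, without overlap. In experiment 2 alone Ggt5 was -0.86 at 4 h and -0.68 at 18 h, below the 2-fold threshold. Both Ggt5 calls were also lost with a pseudocount of 10, with quantile normalisation (limma adjusted p = 0.055 at 4 h and 0.16 at 18 h) and with untransformed RPKM (0.053 and 0.094). The share of all genes whose retinas at 4 h or 18 h all lay below every naïve retina was not counted.

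Hmox1, heme oxygenase 1, was called up at 18 h. Its RPKM was 0 to 20.3 in naïve retinas (median 4.09) and 5.79 to 57.4 at 18 h (median 41.7), with 4 of 5 retinas above every naïve retina. The difference was 2.80 (SE 0.78, limma adjusted p = 0.029), and the call was lost on leaving out naïve retina 6 (limma adjusted p = 0.052) or 18 h retina 1 (0.093), 2 (0.094), 3 (0.11) or 5 (0.054), and within experiment 1 alone (0.057) or experiment 2 alone (0.53).

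**Figure D4:**
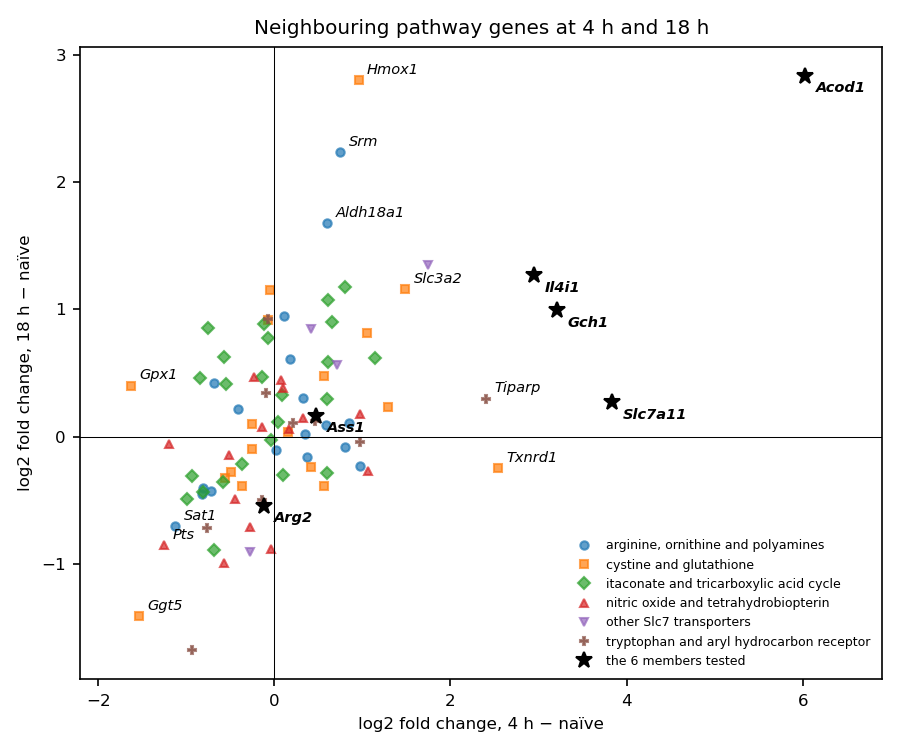
Log2 difference from naïve retinas at 4 h (horizontal) and 18 h (vertical) for the 88 tested genes of 6 lists around the members, coloured by list, with the 6 members tested as stars and the names of genes called at either time. Acod1, Slc7a11, Gch1 and Il4i1 lie to the right of all 88 genes, Srm, Aldh18a1 and Hmox1 lie high on the 18 h axis, and Gpx1, Ggt5, Pts and Sat1 lie on the left.

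Il4i1 rose at 4 h in both experiments, by different amounts. The gene spans chr7:44816387-44840809 on the plus strand. In naïve retinas its RPKM was at most 0.190, with a median of 0.0480. At 4 h it was 16.2 in retina 1, 19.9 in retina 2 and 28.3 in retina 3, all of experiment 1, and 1.22 in retina 4, 4.26 in retina 5 and 1.54 in retina 6, all of experiment 2. At 18 h it was 1.30 in retina 1, 1.32 in retina 2, 2.42 in retina 3, 3.10 in retina 4 and 0.469 in retina 5. All retinas at 4 h and at 18 h lay above every naïve retina. Over all genes tested 1.65% had every 4 h retina above every naïve retina, which held for 4 of the 6 members tested. For every 18 h retina the share was 2.05%, and Il4i1 was the only member. Acod1, Slc7a11 and Il4i1 passed the filter mainly through 4 h or 18 h retinas, so these counts of members carry no weight of their own.

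Il4i1 was 2.95 higher at 4 h (SE 0.41, limma adjusted p = 4.8e-06). Within experiment 1 the difference was 4.39 (limma adjusted p = 1.1e-06) and within experiment 2 it was 1.51 (limma adjusted p = 0.013). The interaction of 4 h with experiment was -2.88 (SE 0.49, limma adjusted p = 0.012), and 0.0988% of genes passed this test, 13 of 13164, with Il4i1 as the only member among the 6 tested. It did not pass on leaving out 4 h retina 4 (limma adjusted p = 0.065) or retina 6 (0.074). The interaction was -0.55 for Acod1, 0.11 for Gch1 and 0.08 for Slc7a11, each with a limma adjusted p of 1.

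At 18 h Il4i1 was 1.27 above naïve retinas (SE 0.44), which did not pass (limma adjusted p = 0.095) although the groups did not overlap, and in experiment 1 alone it was 1.49 and passed (limma adjusted p = 0.048). It also passed with a pseudocount of 0.1 in place of 1, where the difference of low values counts for more (limma adjusted p = 0.0058). From 4 h to 18 h it fell by 1.69 (SE 0.48, limma adjusted p = 0.033), a call lost on leaving out 1 of 6 retinas in turn, 4 h retina 1, 2 or 3 or 18 h retina 1, 2 or 5 (highest limma adjusted p = 0.11). Of 13 other settings 6 kept this call. It was lost with a pseudocount of 0.1 (limma adjusted p = 0.17), no filter (0.096) or only the groups compared (0.15). A block by replicate number (0.058) and quantile normalisation (0.059) lost it too. The fall was 0.74 with a pseudocount of 10, under the 2-fold threshold, and 1.08 in experiment 2 alone, with 1 retina at 18 h. At 2 weeks the RPKM ran from 0 to 1.74, 4 of 7 retinas lay above every naïve retina, and the difference was 0.41 (95% confidence interval -0.40 to 1.21).

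Part of Il4i1 overlaps Nup62 on the same strand, where reads can be divided between both genes by the authors' estimation, and it also lies over parts of Tbc1d17 and Atf5. Nup62 differed by 1.27 at 4 h and did not pass (limma adjusted p = 0.11), and Tbc1d17 differed by -0.29 (limma adjusted p = 0.75). The genes most like Il4i1 over the 28 retinas were Slamf1, a receptor of leukocytes (Pearson r = 0.94), Tnip3, an inhibitor of NF-kappa B signalling (r = 0.92), and Cd40, a costimulatory receptor (r = 0.90).

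In the list of tryptophan, aromatic amino acid and aryl hydrocarbon receptor genes 9 of 21 symbols were tested, with 1 called up at 4 h and 0 at the later times. That gene was Tiparp, a target of the aryl hydrocarbon receptor that dampens it. Its RPKM was 2.51 to 18.0 in naïve retinas (median 8.37) and 8.96 to 163 at 4 h (median 45.4), and the difference was 2.40 (SE 0.56, limma adjusted p = 0.0040). Within experiment 2 alone it was 1.56 and did not pass (limma adjusted p = 0.087). Of 11 other Slc7 amino acid transporters 4 were tested and 0 were called in limma, with an unadjusted p under 0.05 for 1 at 4 h and 2 at 18 h.

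The 4 members that rose at 4 h are set side by side here, with no test between genes. At 4 h the mean was 91.7 ± 42.6 RPKM for Acod1, 18.2 ± 12.02 for Slc7a11, 17.5 ± 9.12 for Gch1 and 11.9 ± 11.2 for Il4i1 (SD, n = 6 each), and only the Acod1 range lay above those of the other 3. The levels of Slc7a11, Gch1 and Il4i1 overlapped. All 6 retinas at 4 h lay above all 5 at 18 h for Acod1, Gch1 and Slc7a11, which 2.79% of genes tested did, and for Il4i1 4 of 6 did. In limma all 4 members were called lower at 18 h than at 4 h, beside 2.51% of all genes called in that direction. They were grouped here for rising at 4 h, so neither share makes their fall particular to them. The share among all genes called up at 4 h was not counted. Over other settings the call was kept in 14 of 14 for Slc7a11, 13 of 14 for Acod1, 11 of 14 for Gch1 and 6 of 13 for Il4i1. From 18 h to 2 weeks only Acod1 was called lower, beside 1.55% of all genes, with -0.94 for Gch1 (limma adjusted p = 0.35), -0.86 for Il4i1 (0.42) and -0.21 for Slc7a11 (0.82). Over the 28 retinas Pearson's r between these 4 members ran from 0.71 for Gch1 and Il4i1 to 0.89 for Gch1 and Slc7a11, over retinas that share the 4 h step.

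Microglial marker RPKM did not overlap between naïve retinas and those at 4 h or 18 h, and its part in the results was not tested. The number of genes detected was 8254 to 10441 at 4 h and 6969 to 10220 at 18 h, beside 6552 to 11825 in naïve retinas. Pearson's r of genes detected was 0.03 with Acod1, 0.18 with Gch1, 0.05 with Slc7a11 and -0.07 with Il4i1. These genes varied mainly by the 4 h step, and detection at 4 h lay within the naïve range. Such r values therefore cannot show whether detection had a part. In 18 h retina 4, with 6969 genes detected, Gch1 and Slc7a11 were listed at 0 RPKM, Acod1 at 4.94 and Il4i1 at 3.10. Scaling all retinas to an equal RPKM total moved the median difference of all genes from -0.11 to -0.28 at 4 h and from -0.08 to -0.26 at 18 h, and the split of all genes called at 4 h from 485 up and 578 down to 410 up and 1002 down. At 18 h the split moved from 374 up and 244 down to 226 up and 471 down. The calls of the members were kept, while those of Slc3a2 at 4 h (limma adjusted p = 0.084) and of Srm (0.0502), Aldh18a1 (0.062) and Hmox1 (0.062) at 18 h were lost.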

How the data were processed

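The authors aligned trimmed single-end reads to mm10 with STAR 2.5.3a and quantified Ensembl transcripts by expectation-maximisation in Partek, which can divide reads between overlapping genes. The library kit does not mark strand. The deposited values are RPKM per gene and retina, and the deposited table states each retina's alignments. The 2 further deposited tables, of the authors' own comparisons, hold p-values, ratios, fold changes and other scores and were not used.

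Groups, replicates, experiments and eyes came from the labels. Values were transformed to log2(RPKM + 1), so that fold changes understate those of low genes. Genes reaching 1 RPKM in 5 or more of the 28 retinas were tested with limma 3.58.1 in R 4.3.3, in 1 model of the 4 groups whose empirical Bayes step followed mean level, and p-values were adjusted by Benjamini-Hochberg over 13164 genes. The test was checked on simulated data for recovery of known differences only, with no limit set on false calls. Deviations from group means were shuffled over all retinas there, so structure by experiment, detection or mouse was not covered. Experiment was used as a batch, within each experiment and as an interaction. The 9 members and the gene lists were chosen with earlier results of these data known. Named genes are the members, at most 3 called genes of each list and comparison with the smallest p, and the 3 genes most like each member by Pearson's r. Any others were named after their values were seen, as were the overlapping neighbours. Alternatives were another pseudocount (0.1 or 10), filter, scaling, covariate, experiment or set of retinas. Leaving out the 4 retinas with under 8000 genes detected was chosen after seeing the data. Coordinates are GRCm38 from GENCODE M21, promoters are from RefSeq on GRCm38.p6, and overlap and figures were made in Python 3.11.15.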

Additional observations from a re-analysis of the deposited data

Results flagged for a closer look

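Of 36 groups of retinas in which a member could be checked for a retina far from the others on the log2(RPKM + 1) scale, 8 had one. For normally spread values chance gives about 1 in 20 groups, a rate that does not hold for groups with many zeros. A lone retina above 0 is flagged whatever its level, so the 8 are not read as an excess. Acod1 stood apart in naïve retina 1, at 9.59 RPKM. Nos2 stood apart in naïve retina 4 (0.0254 RPKM), 4 h retina 4 (0.0137 RPKM) and 18 h retina 3 (0.0469 RPKM), each the only retina of its group above 0. Arg1 stood apart in naïve retina 9, at 0.298 RPKM. In 18 h retina 4 both Arg2 and Gch1 were listed at 0.0 RPKM, below the other 4 retinas of the group. Slc7a11 stood apart in 2-week retina 7, at 1.04 RPKM.

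The rise of Il4i1 at 4 h differed between the experiments, by -2.88 on the log2 scale for experiment 2 minus experiment 1 (limma adjusted p = 0.012), with all 6 retinas at 4 h above every naïve retina.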

How the results depend on the processing

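The 4 members called up at 4 h numbered 3 to 4 under 14 alternatives and 4 on leaving out any retina; the missing call was Il4i1, with a pseudocount of 10. Members up at 18 h numbered 1 in the values reported, 2 with a pseudocount of 0.1, in experiment 1 alone, with only the groups compared and without the retinas under 8000 genes detected, and 0 with a pseudocount of 10 or untransformed RPKM, with a range of 1 to 2 on leaving out retinas. Members differing between 18 h and 4 h numbered 4, but 1 with a pseudocount of 0.1, and 3 to 4 on leaving out retinas. Gch1 was also lost in experiment 1 alone. Il4i1 was also lost with a pseudocount of 10, no filter, the replicate block, only the groups compared or quantile normalisation, and a filter of 5 RPKM removed it. Experiment 2 alone, with 1 retina at 18 h, is given no count. Il4i1 kept its call between 18 h and 4 h in 6 of 13 alternatives. Members differing between 2 weeks and 18 h numbered 1, but 0 with a pseudocount of 10, in experiment 1 alone and with untransformed RPKM. Members with a 4 h by experiment interaction numbered 1, but 0 with a pseudocount of 0.1 or a filter of 5 RPKM, which removes Il4i1, and 0 to 1 on leaving out retinas. Apart from that filter, the cause was not tested.

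Values that changed sign were not called, and those of Arg2 with the replicate block are given below. With a pseudocount of 0.1 they were 0.16 for Acod1 at 2 weeks, -0.046 for Gch1 at 2 weeks and -0.46 for its interaction; with quantile normalisation -0.037 for Gch1 at 2 weeks; in experiment 1 alone -0.12 for Slc7a11 at 2 weeks and 0.35 for Arg2 at 18 h; in experiment 2 alone 0.15 for Acod1 at 2 weeks and 0.24 for Il4i1 between 2 weeks and 18 h. On leaving out each retina the ranges were -0.25 to 0.27 for Acod1, -0.12 to 0.21 for Gch1 and -0.063 to 0.14 for Slc7a11 at 2 weeks, -0.33 to 0.46 for Gch1 and -0.55 to 0.49 for Slc7a11 in the interaction, and -0.53 to 0.34 for Arg2 at 4 h.

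Deviations from group means were correlated between retinas of different groups. The median r was 0.04 over 34 pairs of the same replicate number (range -0.33 to 0.70) and 0.01 over 253 others (range -0.55 to 0.69). Pairs within a group were not compared, so these values cannot show whether some retinas share a mouse. With the replicate block 4 members were called up at 4 h, 1 at 18 h and 3 between 18 h and 4 h, and all genes called at 4 h were 565 up and 511 down. Arg2 changed sign with that block, to 0.77 at 4 h and 0.69 at 18 h, beside -0.12 and -0.54 in the values reported. All genes called at 4 h were 302 up and 157 down in experiment 1 alone and 1107 down in experiment 2 alone, 241 up and 175 down with a pseudocount of 10, and 323 down untransformed. At 18 h the replicate block gave 393 up and 205 down, and they were 154 up and 78 down in experiment 1, 107 up and 58 down in experiment 2, and 74 down with a pseudocount of 10.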
